A study of Mus musculus with 6 samples.

Results

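Organic ion transporters carry bile acids, hormones, prostaglandins, carnitine and drugs across the plasma membrane of liver cells. The RNA of 9 of their genes was followed in the livers of mice fed a methionine- and choline-deficient (MCD) diet. The members were chosen by symbol: Slco1a1, Slco1a4, Slco1b2, Slco2a1 and Slco2b1 of the organic anion transporting polypeptide (OATP) family, and Slc22a7, Slc22a26, Slc22a30 and Slc22a5 of the Slc22 family of organic anion, cation and carnitine transporters. They are 9 of the 40481 genes with a symbol in the deposited table of all pools. All 9 were measured in every pool, and all 9 passed the filter on low counts, the smallest value being 74 reads.

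Mice of both groups were male C57BL/6 animals of 12 to 16 weeks carrying *Mttp* f/f Villin Cre ERT2, that is, floxed alleles of Mttp, which encodes the transfer protein needed to assemble chylomicrons, and a tamoxifen-inducible Cre driven by the Villin promoter of the intestinal epithelium. *Mttp-IKO* mice received tamoxifen for 5 days and control littermates received vehicle (the labels call the controls wild type), the MCD diet began 3 weeks later, and livers were taken after 3 weeks of diet and a fast of 4 h by the labels. The liver RNA of 3 to 4 mice made a pool, with 3 pools for each genotype (the labels name 12 livers), and each pool was depleted of ribosomal RNA and sequenced. A replicate is a pool, so p-values measure the spread between pools and not between mice, and tamoxifen itself was given to one genotype only, so that its effect and that of the deletion cannot be told apart. 

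OATP proteins are exchangers, some of which sit on the sinusoidal membrane of the hepatocyte and take organic anions up from portal blood. Slc22 proteins form a separate family and include organic anion transporters (OATs), organic cation transporters and the carnitine transporter OCTN2. In mouse liver several of these genes are known for levels that differ between the sexes under the control of growth hormone: Slco1a1 is known as a gene of male liver and Slco1a4 as one more active in females.

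Pools held 25271585 to 36238734 reads on genes. Levels are given as CPM, the counts relative to library size scaled by TMM (a factor that aligns the bulk of genes between pools), and pools are listed in the order 1, 2 and 3. Mttp in the liver, which the Villin promoter does not target, had 90.4, 186 and 175 CPM in the controls and 145, 129 and 161 CPM in the *Mttp-IKO* pools, so liver RNA cannot check the genotype labels. The Y-linked genes Ddx3y, Uty, Kdm5d and Eif2s3y were read in every pool at 14.1 CPM or more, and Xist at 0.422 to 1.51 CPM. *Mttp-IKO* pool 3 stood apart from the rest: small RNA genes took 0.290% of its reads and 1.92% to 3.51% of those of each other pool. Of 17287 genes tested with edgeR, 694 passed an adjusted p of 0.05, 159 higher and 535 lower in *Mttp-IKO* pools. An unadjusted p under 0.05 was reached by 3977 of the 17287 genes (edgeR), the background for counts at that level below.

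The OATP genes are copies of one another to different degrees, and only reads with a unique place in the genome were counted. The sequences that follow are of the coding strand, 5′ to 3′, from the longest GENCODE M21 coding transcript of each gene (GRCm38). The first stretch, shown because it marks membership of the family, encodes 12 residues of the signature that OATP proteins share, and capitals mark bases that differ from Slco1a1. It lies at chr6:141925692-141925727 (minus strand, exon 7) in Slco1a1, chr6:141825142-141825177 (minus, exon 7) in Slco1a4, chr6:141663601-141663636 (plus, exon 9) in Slco1b2, chr7:99682827-99682862 (minus, exon 7) in Slco2b1 and chr9:103070251-103070286 (plus, exon 6) in Slco2a1.
Slco1a1: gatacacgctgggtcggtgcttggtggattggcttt
Slco1a4: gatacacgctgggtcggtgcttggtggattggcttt
Slco1b2: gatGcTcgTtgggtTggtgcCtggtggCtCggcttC
Slco2b1: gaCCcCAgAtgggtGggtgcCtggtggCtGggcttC
Slco2a1: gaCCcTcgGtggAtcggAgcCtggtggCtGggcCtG
Over these 36 bases Slco1a1 and Slco1a4 were identical, while Slco1b2 differed at 8 bases, Slco2b1 at 10 and Slco2a1 at 11. Over the whole coding sequence Slco1a1 and Slco1a4 were identical at 86.6% of 2013 aligned bases, and the other pairs of these 5 genes at 58.1% to 64.7%.

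The first 60 coding bases show how far the closest pair can be told apart elsewhere. They lie at chr6:141946579-141946638 in Slco1a1 and chr6:141845409-141845468 in Slco1a4, both on the minus strand, and capitals mark the 13 bases at which Slco1a4 differs.
Slco1a1: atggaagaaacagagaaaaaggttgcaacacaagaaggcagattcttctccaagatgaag
Slco1a4: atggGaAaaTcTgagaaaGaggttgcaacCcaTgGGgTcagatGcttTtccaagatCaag
Of all stretches of 50 bases in the annotated transcripts, 1.64% of those of Slco1a1 and 1.61% of those of Slco1a4 also occurred in another gene, in each case mostly in one another, Slco1a5 or Slco1a6. Slco1b2 and Slc22a7 shared none. Slco2a1 shared 1.28%, 104 of its exon bases lying opposite the ribosomal RNA gene n-R5s89, and Slco2b1 shared 5.89%, mostly with Gm15635 on the opposite strand, where the exons overlap by 418 bases. Use of the strand in counting is not given in the sources used here, so reads of such pairs cannot be told apart.

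Among the Slc22 members Slc22a26 and Slc22a30 belong to a cluster of rodent OAT genes on chromosome 19. Their first 60 coding bases are shown beside those of Slc22a27, a neighbour that is not a member but was called in the same comparison. All 3 stretches are on the minus strand, at chr19:7802390-7802449 for Slc22a26, chr19:7926711-7926770 for Slc22a27 and chr19:8404846-8404905 for Slc22a30, and capitals mark differences from Slc22a26.
Slc22a26: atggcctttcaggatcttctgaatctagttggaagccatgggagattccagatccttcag
Slc22a27: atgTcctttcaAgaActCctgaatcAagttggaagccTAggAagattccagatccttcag
Slc22a30: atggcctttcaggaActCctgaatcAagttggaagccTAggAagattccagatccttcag
Slc22a27 differed from Slc22a26 at 8 of these bases and Slc22a30 at 6. Over the coding sequence Slc22a26 was 74.4% identical to Slc22a30 and 74.7% identical to Slc22a27, while Slc22a30 and Slc22a27 were 91.7% identical. In Slc22a30 34.3% of the 50-base stretches occurred in another gene, mostly Slc22a28, and in Slc22a5 26.3%, mostly in its neighbour Slc22a21. The counts of both may therefore be incomplete, but the loss of reads was not measured. In Slc22a26 6.21% did, all with the transcript AC115715.1.

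Between the genotypes, 3 of the 9 members passed an adjusted p of 0.05 in edgeR's quasi-likelihood test (4.01% of all genes tested passed), all 3 higher in *Mttp-IKO* pools (0.92% of all genes) and 0 lower (3.09% of all genes). They were Slc22a26, which rose 5.46-fold, Slco2a1, which rose 2.36-fold, and Slco1a4, which rose 2.35-fold. The median log2 fold change of the 9 was 0.41, with 6 above 0 and 3 below, against 0.0057 over all genes tested. The same 3 genes were those whose pools did not overlap between the genotypes, as was so for 31% of all genes tested. The members had been picked with earlier results of these data known, so their share of calls describes them and is no independent evidence. The count of 3 fell to 1 without control pool 1 and to 0 without control pool 3, *Mttp-IKO* pool 1 or *Mttp-IKO* pool 2. In each of these edgeR fits 3 or 4 members had an unadjusted p under 0.05. Over all genes that level was reached by 2476 of 17652 without control pool 1 and 2539 of 17869 without control pool 3. Without *Mttp-IKO* pool 1 it was reached by 4457 of 17943, and without *Mttp-IKO* pool 2 by 3221 of 17873. Bulk RNA gives an amount per liver sample, so fewer cells of a type and less RNA per cell cannot be told apart.

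**Figure D1:**
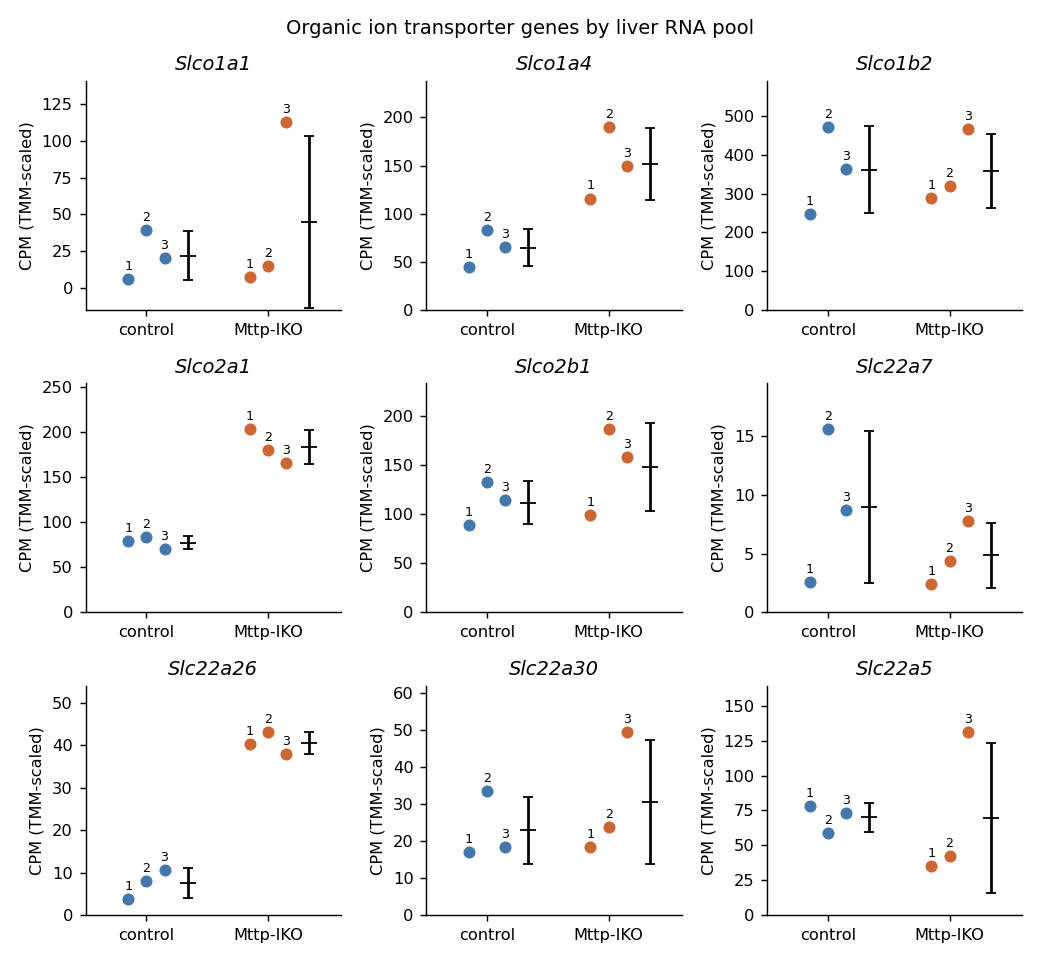
TMM-scaled CPM of the 9 organic ion transporter genes in each liver RNA pool (points, numbered by pool; blue control, orange *Mttp-IKO*), with mean ± SD of the 3 pools in black. Slco1a4, Slco2a1 and Slc22a26 have no overlap between the genotypes, and in Slco1a1, Slc22a30 and Slc22a5 *Mttp-IKO* pool 3 lies above the other 5 pools.

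Slc22a26 (ENSMUSG00000053303, chr19:7781041-7802667, minus strand), an organic anion transporter gene of rodents whose substrates are less studied than those of the other members, changed the most. Its level was 3.64, 8.10 and 10.6 CPM in the controls and 40.4, 43.2 and 38 CPM in the *Mttp-IKO* pools. The lowest *Mttp-IKO* pool was far above the highest control pool, and the 3 *Mttp-IKO* pools differed by no more than 1.14-fold. The means were 7.44 ± 3.52 and 40.5 ± 2.64 CPM (SD, n = 3 pools), and the log2 fold change was 2.45 (standard error, SE, 0.349, 95% confidence interval 1.64 to 3.25, adjusted p = 0.0181, edgeR). In all 11 other settings of scaling, test, filter and block the gene passed, while with single pools left out it passed in 3 of 6 fits, with log2 fold changes of 2.10 to 2.76.

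Slco2a1 (ENSMUSG00000032548, chr9:102988712-103096002, plus strand) encodes the prostaglandin transporter, which takes prostaglandins into cells for breakdown and is made by endothelial cells as well as by other cell types. Control pools 1 to 3 had 79.1, 83.7 and 69.9 CPM, and *Mttp-IKO* pools 1 to 3 had 203, 180 and 166 CPM. The pools of each genotype lay close together and well apart from those of the other. The means were 77.6 ± 7.0 and 183 ± 18.9 CPM (SD, n = 3 pools), with a log2 fold change of 1.24 (SE 0.162, 95% confidence interval 0.87 to 1.61, adjusted p = 0.0175, edgeR). It passed in all 11 other settings and in 2 of the 6 fits without single pools, in which the log2 fold change ran from 1.15 to 1.31. The 12 endothelial markers measured, from Pecam1 and Cdh5 to the sinusoidal genes Stab2 and Clec4g, summed to 816 to 934 CPM in the controls and 829 to 996 CPM in the *Mttp-IKO* pools, with overlap. None of the 12 passed the threshold in edgeR (0 at an unadjusted p under 0.05), DESeq2 or limma-voom, and their median log2 fold change was -0.12.

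Slco1a4 (ENSMUSG00000030237, chr6:141805440-141856199, minus strand) encodes Oatp1a4, a sinusoidal uptake carrier of bile acids, steroid conjugates and digoxin, and its gene is a known target of the xenobiotic receptor PXR. It had 45, 83.3 and 65.8 CPM in the controls and 116, 190 and 150 CPM in the *Mttp-IKO* pools. Every *Mttp-IKO* pool exceeded every control pool. The means were 64.7 ± 19.2 and 152 ± 37.3 CPM (SD, n = 3 pools), and the log2 fold change was 1.23 (SE 0.271, 95% confidence interval 0.61 to 1.86, adjusted p = 0.0486, edgeR). This call lay at the edge of the threshold: it was lost with upper quartile scaling (adjusted p = 0.0509, edgeR), with limma-voom (adjusted p = 0.0562) and with a filter of 1 CPM (adjusted p = 0.0529, edgeR), and it held in 1 of the 6 fits without single pools. In all of these fits the log2 fold change stayed between 1.0 and 1.43.

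Slco1a1 (ENSMUSG00000041698, chr6:141907282-141946962, minus strand) encodes Oatp1a1, the closest relative of Oatp1a4. It was the most uneven member, with 6.27, 39.3 and 20.4 CPM in the controls and 7.25, 15.1 and 113 CPM in the *Mttp-IKO* pools. *Mttp-IKO* pool 1 lay among the lowest and pool 3 far above all others, a span of 15.5-fold within the genotype and of 6.26-fold within the controls. The means were 22.0 ± 16.6 and 45 ± 58.7 CPM (SD, n = 3 pools), and the difference did not exceed the spread of the pools (a log2 fold change of 1.03, SE 0.987, 95% confidence interval -1.24 to 3.30, adjusted p = 0.570, edgeR). Without *Mttp-IKO* pool 3 the log2 fold change turned to -0.97 (adjusted p = 0.419, edgeR). So the data of these 6 pools give no direction for Slco1a1.

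Slco1b2 (ENSMUSG00000030236, chr6:141629518-141686646, plus strand) encodes Oatp1b2, the liver-specific carrier of unconjugated bile acids and many drugs. It had 249, 473 and 363 CPM in the controls and 289, 320 and 467 CPM in the *Mttp-IKO* pools. The ranges lay almost on top of each other. The means were 362 ± 112 and 359 ± 95.3 CPM (SD, n = 3 pools), with a log2 fold change of -0.011 (SE 0.284, 95% confidence interval -0.67 to 0.64, adjusted p = 0.986, edgeR) whose sign changed in 5 of 11 other settings.

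Slco2b1 (ENSMUSG00000030737, chr7:99657804-99711340, minus strand) encodes Oatp2b1, a carrier of sulfated steroids found in many tissues. Control pools 1 to 3 had 88.8, 133 and 115 CPM and *Mttp-IKO* pools 1 to 3 had 99.4, 187 and 159 CPM. *Mttp-IKO* pool 1 fell among the controls, and pools 2 and 3 lay above them. The log2 fold change was 0.41 (SE 0.261, 95% confidence interval -0.20 to 1.01, adjusted p = 0.388, edgeR).

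Slc22a7 (ENSMUSG00000067144, chr17:46432185-46438477, minus strand) encodes Oat2, a carrier of small organic anions and nucleotides. It was the least abundant member by CPM in *Mttp-IKO* pools, with 2.58, 15.6 and 8.75 CPM in the controls and 2.39, 4.39 and 7.80 CPM in the *Mttp-IKO* pools. The genotypes overlapped, and the controls spanned 6.04-fold. The log2 fold change was -0.89 (SE 0.630, 95% confidence interval -2.34 to 0.56, adjusted p = 0.435, edgeR).

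Slc22a30 (ENSMUSG00000052562, chr19:8335371-8405111, minus strand), another rodent OAT gene, had 16.9, 33.3 and 18.3 CPM in the controls and 18.2, 23.6 and 49.4 CPM in the *Mttp-IKO* pools. Only *Mttp-IKO* pool 3 exceeded the range of the controls. The log2 fold change was 0.41 (SE 0.404, 95% confidence interval -0.52 to 1.34, adjusted p = 0.579, edgeR), and without that pool it was -0.12.

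Slc22a5 (ENSMUSG00000018900, chr11:53864542-53891660, minus strand) encodes OCTN2, the high-affinity carnitine transporter and a known target of PPAR-alpha. It had 78.6, 58.8 and 72.9 CPM in the controls and 35.3, 42.1 and 132 CPM in the *Mttp-IKO* pools. *Mttp-IKO* pools 1 and 2 lay below every control pool and pool 3 above every control pool. The means of 70.1 ± 10.2 and 69.7 ± 53.7 CPM (SD, n = 3 pools) were therefore nearly equal (a log2 fold change of -0.0092, SE 0.46, 95% confidence interval -1.07 to 1.05, adjusted p = 0.994, edgeR). Without *Mttp-IKO* pool 3 the log2 fold change was -0.85 (SE 0.162, adjusted p = 0.0396, edgeR), and Slc22a5 was then the 1 member called lower, beside Slco2a1 and Slc22a26 called higher.

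**Figure D2:**
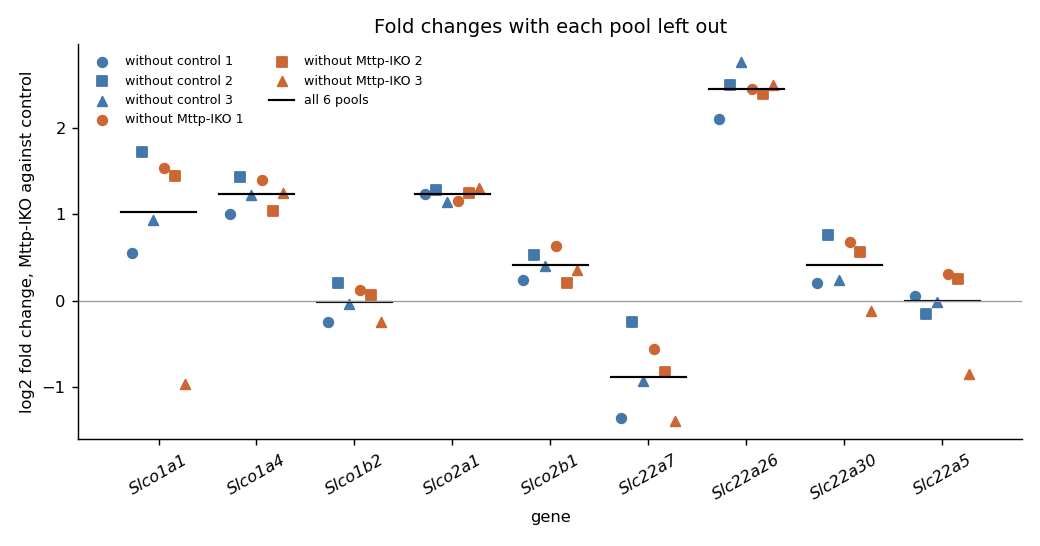
Log2 fold change (*Mttp-IKO* against control) of each member from edgeR with all 6 pools (black line) and with each pool left out in turn (blue, a control pool; orange, an *Mttp-IKO* pool; circle, square and triangle for pools 1, 2 and 3). The values of Slc22a26, Slco2a1 and Slco1a4 stay above 1, whereas those of Slco1a1, Slc22a30 and Slc22a5 fall to -0.97, -0.12 and -0.85 without *Mttp-IKO* pool 3.

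Levels of different genes were compared per kilobase of gene (RPKM, computed here from the TMM-scaled CPM and the gene lengths of the files). In control pools Slco1b2 came first, at 73.3 ± 22.7 RPKM (SD, n = 3 pools), and its pools did not overlap those of the next gene. Slc22a5 (22.8 ± 3.32), Slco2b1 (20 ± 3.93) and Slco1a4 (16.8 ± 4.97 RPKM) followed, each overlapping its neighbour in this order. After a gap came Slc22a30 (6.78 ± 2.70), Slco2a1 (5.73 ± 0.517), Slc22a7 (4.47 ± 3.24), Slco1a1 (4.16 ± 3.14) and Slc22a26 (2.52 ± 1.19 RPKM). The first 4 of these overlapped one another, while Slc22a26 overlapped Slc22a7 and Slco1a1 and lay below every pool of Slc22a30 and Slco2a1. In *Mttp-IKO* pools Slco1b2 was still first (72.8 ± 19.3 RPKM), and Slco1a4 had moved from the fourth to the second place (39.4 ± 9.68 RPKM). The pools of Slco1a4 lay apart from those of Slco1b2 but overlapped those of Slco2b1 (26.4 ± 7.97 RPKM) and Slc22a5 (11.5 to 42.8 RPKM). Slc22a26 had moved from the last to the fifth place, at 13.7 ± 0.896 RPKM, next to Slco2a1 at 13.5 ± 1.39 RPKM, with which it overlapped. It also overlapped Slc22a5, Slc22a30 (5.41 to 14.7 RPKM) and Slco1a1 (1.37 to 21.3 RPKM), so these places are loose.

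The share of each OATP gene in the summed RPKM of the 15 Slco genes listed shows how the family's RNA was divided. Slco1b2 held 57.7%, 61.2% and 60.2% in the controls and 47.3%, 39.4% and 48.0% in *Mttp-IKO* pools 1 to 3. Slco1a4 held 13.4%, 13.8% and 14.0% in control pools and 24.3%, 29.9% and 19.7% in *Mttp-IKO* pools. The share of Slco1b2 was thus lower and that of Slco1a4 higher in every *Mttp-IKO* pool than in any control pool, although the level of Slco1b2 itself was not. Each gave a two-sided p of 0.1 in an exact permutation test, the smallest that 3 pools against 3 can give. Slco1a1 held 1.36%, 4.75% and 3.15% in control pools and 1.11%, 1.73% and 10.8% in *Mttp-IKO* pools, so that the means of 3.09% ± 1.70 and 4.55% ± 5.43 (SD, n = 3 pools) differed by less than the spread (exact permutation test, two-sided p = 0.9, where 3 pools against 3 cannot go below 0.1). Without *Mttp-IKO* pool 3 the difference in this share turned from 1.46 to -1.67 percentage points. The summed RPKM of the family overlapped between the genotypes, at 87.3 to 157 in control pools and 124 to 197 in *Mttp-IKO* pools.

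Shares were taken in the same way over the 24 Slc22 genes listed, which are not the whole family. Slc22a26 held 0.976%, 1.97% and 2.73% in control pools and 10.9%, 11% and 7.28% in *Mttp-IKO* pools, again without overlap (exact permutation test, two-sided p = 0.1). Slc22a5 held 20.2%, 13.7% and 18.1% in control pools and 9.14%, 10.3% and 24.2% in *Mttp-IKO* pools, with *Mttp-IKO* pool 3 as the highest of all (exact permutation test, two-sided p = 0.7).

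**Figure D3:**
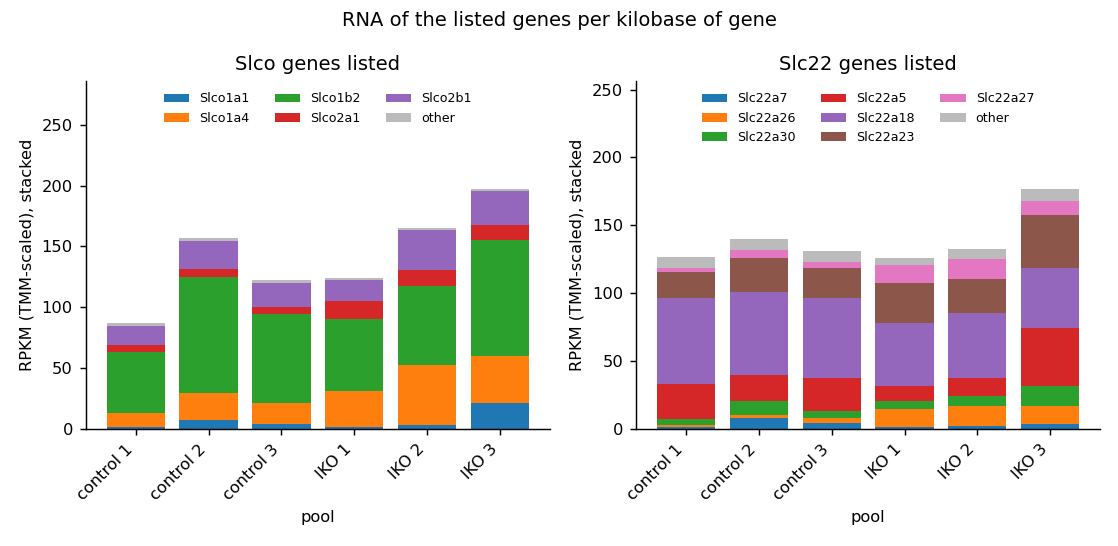
Stacked TMM-scaled RPKM of the Slco genes (left) and the listed Slc22 genes (right) in each of the 6 pools, with genes outside the legend summed as other. Slco1b2 is the largest part of each Slco bar, and the parts of Slco1a4 and Slc22a26 are larger in every *Mttp-IKO* pool.

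The listed rest of both families gave fewer calls, where 4.01% of all genes tested passed. As the members were picked with earlier results of these data known, this difference is no independent evidence. Of 10 other Slco genes 2 were tested and 0 passed in edgeR: Slco3a1, which encodes a widely made OATP (15.5 ± 2.01 and 9.85 ± 2.27 CPM, a log2 fold change of -0.66, adjusted p = 0.119), and Slco4a1, a thyroid hormone carrier, at 1.1 CPM or less in every pool. The other 8, Slco1a5 and Slco1a6 among them, had too few reads to be tested. With no filter beyond 1 count, 1 of them was called lower in edgeR: Slco5a1, with 20, 32 and 9 reads in the controls and 0, 2 and 0 reads in the *Mttp-IKO* pools (adjusted p = 0.0360). By unadjusted p under 0.05, 1 of the 2 tested passed, DESeq2 and limma-voom called 0, and without *Mttp-IKO* pool 3 Slco3a1 was called lower. Of 20 other Slc22 genes listed 12 were tested, and 1 passed, with a median log2 fold change of 0.081. It was Slc22a27, the neighbour of Slc22a26 whose sequence is given above, which had 5.68, 13.1 and 10.5 CPM in the controls and 28.5, 31.5 and 21.6 CPM in the *Mttp-IKO* pools (a log2 fold change of 1.48, SE 0.307, adjusted p = 0.0423, edgeR). Its genotypes did not overlap, and its change, like that of Slc22a26, was upward. The next members of the cluster, Slc22a28 and Slc22a29, were at 2.27 CPM or less in every pool and did not pass.

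**Figure D4:**
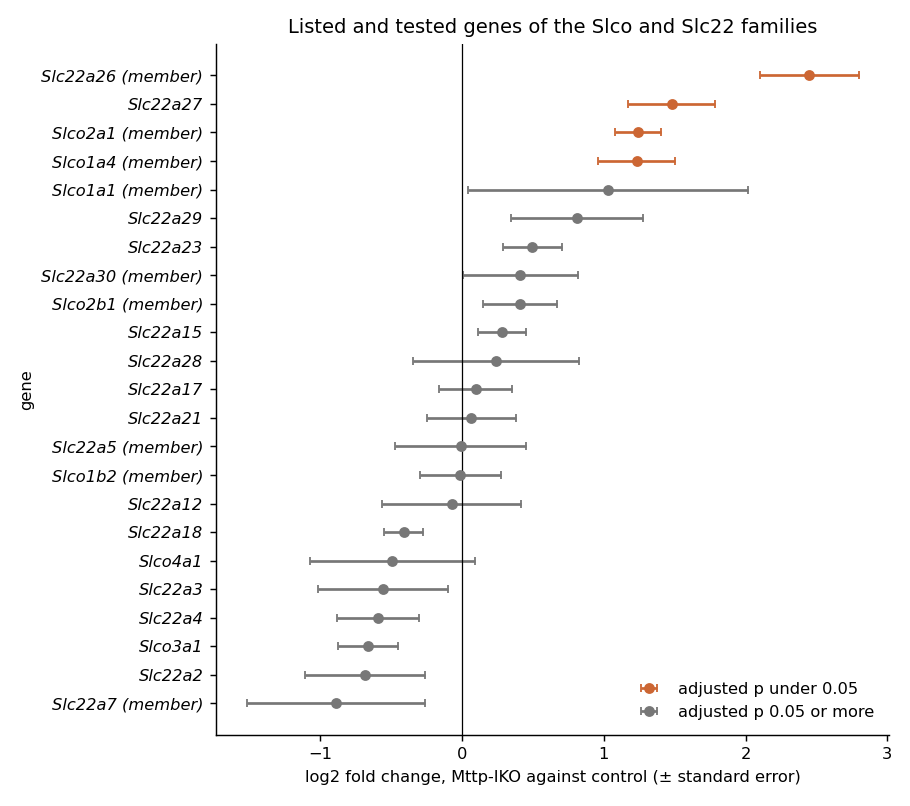
Log2 fold change (*Mttp-IKO* against control, points) with its standard error (bars) for the 23 listed genes of the Slco and Slc22 families that were tested, from edgeR, with adjusted p under 0.05 in orange. Slc22a26, Slc22a27, Slco2a1 and Slco1a4 are called, all to the right of 0, and the interval of Slco1a1 is the widest.

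Genes that work with the members were followed in lists. For every list, counts at an unadjusted p under 0.05 stand beside 3977 of all 17287 genes tested (edgeR). Slco1a4 and Slco1b2 share bile acids with the uptake carrier Slc10a1 (NTCP) and the export pumps of the ABC family. Of 14 such genes 0 passed in edgeR (3 at an unadjusted p under 0.05), with a median log2 fold change of -0.0081, while limma-voom called 0 and DESeq2 2, both higher. Slc10a1, named here after its values were seen, was at 62.6, 203 and 129 CPM in the controls and 373, 766 and 341 CPM in the *Mttp-IKO* pools, without overlap (a log2 fold change of 1.91, SE 0.471, adjusted p = 0.0652, edgeR). This gene was short of the threshold in that fit and past it in 4 of 11 other settings: DESeq2 (adjusted p = 0.000387), edgeR with no filter beyond 1 count (adjusted p = 0.0257), the replicate block (adjusted p = 0.0276) and the gene length trend removed (adjusted p = 0.0468). Of 17 prostaglandin genes 16 were tested: 0 rose and 1 fell in edgeR (7 at an unadjusted p under 0.05), with 11 of 16 log2 fold changes below 0 and a median of -0.39. The gene that fell, Ptgir, encodes the prostacyclin receptor (2.54 ± 0.423 and 0.695 ± 0.261 CPM, SD, n = 3 pools; a log2 fold change of -1.86, adjusted p = 0.0360, edgeR). The number called lower was 4 with total counts only, 5 with DESeq2, 4 with the gene length trend removed, 3 with no filter beyond 1 count and 2 with protein-coding genes only. None of the 16 was called higher in any of the 11 other settings, where Slco2a1, the transporter, was. Of 8 carnitine genes, such as the synthesis enzyme Bbox1 and the palmitoyltransferase Cpt1a, 0 passed in edgeR (3 at an unadjusted p under 0.05) and 0 in DESeq2 and limma-voom, with a median of 0.037. Without *Mttp-IKO* pool 3, the fit in which Slc22a5 was called lower, 2 of the 8 were called lower as well.

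Of 16 regulators known to act on hepatic transporter genes, 2 rose and 0 fell in edgeR (6 at an unadjusted p under 0.05), and the median log2 fold change was 0.33. Cux2, a homeobox repressor known from female liver, was at 4.36, 7.43 and 7.0 CPM in the controls and 31.1, 88.8 and 63.8 CPM in the *Mttp-IKO* pools (a log2 fold change of 3.29, SE 0.401, adjusted p = 0.0159, edgeR). Nr0b2, which encodes the bile acid-responsive repressor SHP, was at 25.1, 21.1 and 17.3 CPM in the controls and 54.5, 45.8 and 33.1 CPM in the *Mttp-IKO* pools (a log2 fold change of 1.07, SE 0.225, adjusted p = 0.0435, edgeR). Both had no overlap between the genotypes. Cux2 passed in all 11 other settings, whereas the call of Nr0b2 was lost with total counts only (adjusted p = 0.0699, edgeR) and with limma-voom (adjusted p = 0.0555) and held in 1 of the 6 fits without single pools. DESeq2 and the fit with the gene length trend removed called 3 regulators higher, the added one being Hnf4a. The receptors PXR (Nr1i2) and CAR (Nr1i3), the growth hormone receptor gene Ghr and Stat5a and Stat5b did not pass in edgeR. Among these, Nr1i2 was higher without overlap (a log2 fold change of 0.40, adjusted p = 0.171, edgeR). Stat5a was lower without overlap (a log2 fold change of -0.42, adjusted p = 0.163, edgeR). Nr1i3, Ghr and Stat5b overlapped between the genotypes.

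Lists of sex-biased liver genes, whose genes were picked once large changes among them were known, were set beside the members because Slco1a1 and Slco1a4 are known to differ between the sexes. Of 14 female-biased genes 13 were tested, 6 rose and 0 fell in edgeR (10 at an unadjusted p under 0.05), with a median log2 fold change of 2.72, and DESeq2 called 8 higher and 0 lower. They include the cytochrome P450 genes Cyp3a41a, at 1.5 ± 0.834 and 38.1 ± 21.1 CPM (SD, n = 3 pools; a log2 fold change of 4.68, adjusted p = 0.0181, edgeR), and Cyp3a41b (0.18 ± 0.197 and 6.52 ± 3.16 CPM, a log2 fold change of 5.22, adjusted p = 0.0181, edgeR), near-identical copies whose counts are uncertain. The sulfotransferase gene Sult3a1 had 0 reads in all control pools, which allows 0.0744 to 0.0937 CPM, and 0.612, 2.23 and 0.755 CPM in the *Mttp-IKO* pools. Cux2 is on this list too. Of 11 male-biased genes 1 rose and 0 fell in edgeR (2 at an unadjusted p under 0.05), and the median was 0.33. The 1 was Cyp2d9 (182 ± 52.0 and 404 ± 24.4 CPM, a log2 fold change of 1.15, adjusted p = 0.0389, edgeR). Mup20, a major urinary protein gene named after its values were seen, was at 432, 390 and 466 CPM in the controls and 74.7, 68.2 and 261 CPM in the *Mttp-IKO* pools, without overlap (a log2 fold change of -1.67, adjusted p = 0.0994, edgeR). It was called lower by DESeq2 (adjusted p = 0.00608), with the replicate block (adjusted p = 0.0443, edgeR) and with no filter beyond 1 count (adjusted p = 0.0444, edgeR). In 9 of the 11 male-biased genes *Mttp-IKO* pool 3 was the highest of the 6 pools, as it was for Slco1a1, Slc22a30 and Slc22a5. That pool was also the highest in 5 of 10 hepatocyte markers and 6 of 16 regulators. It was so in 3 of 13 female-biased and 0 of 16 prostaglandin genes tested. How often it was the highest over all genes was not counted, so these numbers only describe the lists. Without that pool 1 male-biased gene was called higher and 5 lower, and 7 female-biased genes were called higher.

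The cell types of the pools were read from marker lists. All 10 hepatocyte markers were present, summing to 55983 to 92108 CPM in the controls and 112428 to 165986 CPM in the *Mttp-IKO* pools, without overlap, although 0 passed singly in edgeR (5 at an unadjusted p under 0.05; DESeq2 called 4 higher and edgeR with the gene length trend removed 2) and 9 of 10 log2 fold changes were above 0 (median 0.71). Most of each sum was Alb, at 40131, 69006 and 53314 CPM in the controls and 97241, 132236 and 84786 CPM in the *Mttp-IKO* pools. The sums therefore mainly follow this gene. Ttr was lower without overlap, at 2808, 3828 and 3252 CPM in the controls and 2549, 2740 and 1466 CPM in the *Mttp-IKO* pools. Of 6 markers of recruited macrophages 4 fell in edgeR and the sum of the 6 was 233 to 730 CPM in the controls and 60.4 to 136 CPM in the *Mttp-IKO* pools, and of 8 stellate cell markers 4 fell, with sums of 882 to 1558 and 476 to 556 CPM. Gpnmb, the largest part of the macrophage sum in every pool, was not called in edgeR (adjusted p = 0.0588) but was called lower by DESeq2 (adjusted p = 7.9e-05). Of 6 Kupffer cell markers 1 rose in edgeR, Timd4 (a log2 fold change of 1.16, adjusted p = 0.0425). That call was lost with total counts only (adjusted p = 0.0601, edgeR), limma-voom (adjusted p = 0.0583) and the replicate block (adjusted p = 0.0611, edgeR), and DESeq2 called 1 Kupffer cell marker higher and 1 lower. Of 6 cholangiocyte markers 0 passed in edgeR (3 at an unadjusted p under 0.05) and 0 in limma-voom, while DESeq2 called 1 lower, Epcam (adjusted p = 0.0326). The summed levels of both lists overlapped. No marker of any of these lists was at 0 in all pools. These shifts moved with the rise of Slc22a26, Slco2a1 and Slco1a4, and their part in it was not tested.

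Letters before the RefSeq start are shown for Slc22a26 and Slco1a4, members that rose and whose windows lie outside the gene as given above. RefSeq (GRCm38.p6) gave windows for 8 of the 9 members, and each window here is the 250 bases before a RefSeq start, read toward the gene. They lie at chr19:7802668-7802917 (minus strand) for Slc22a26 and chr6:141856221-141856470 (minus) for Slco1a4. The RefSeq start of Slco2a1 lies 19775 bases inside the gene as the files give it, and its window, at chr9:103008237-103008486 (plus), falls wholly within an annotated 5′ UTR of GENCODE M21, so its letters are not printed. Capitals mark matches, on either strand, to 6 short patterns: GTTAAT (an HNF1 half-site), AGGTCA (a nuclear receptor half-site), TTCNNNGAA (the STAT5 palindrome), TGACNNNGC (an antioxidant response element), GCGTG (the xenobiotic response core) and TATAAA (the TATA box).
Slc22a26: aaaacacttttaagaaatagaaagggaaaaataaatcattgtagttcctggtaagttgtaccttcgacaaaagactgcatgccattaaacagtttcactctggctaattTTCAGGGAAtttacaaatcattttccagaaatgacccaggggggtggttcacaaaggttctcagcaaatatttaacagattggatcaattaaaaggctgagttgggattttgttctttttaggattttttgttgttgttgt
Slco1a4: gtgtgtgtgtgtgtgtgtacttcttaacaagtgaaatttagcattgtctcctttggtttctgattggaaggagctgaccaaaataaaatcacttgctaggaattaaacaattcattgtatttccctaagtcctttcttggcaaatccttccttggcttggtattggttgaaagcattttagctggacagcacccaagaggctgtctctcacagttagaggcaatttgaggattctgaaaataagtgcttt
The window of Slc22a26 held TTCNNNGAA at -141, as TTCAGGGAA, a pattern held by 7.02% of all 32851 windows of this length. It was also held by the window of Slco1b2 and by 1 of the 3 windows of Slco2b1. The window of Slco2a1 held TATAAA at -29, as 12.4% of all windows hold it somewhere, and that of Slco1a4 held none of the 6. Slco1b2, the most abundant OATP member, held GTTAAT at -66 (6.43% of all windows), and AGGTCA was found in Slco1b2 and at 2 places in Slco1a1 (14.0% of all windows). Slc22a5 held GCGTG (28.2% of all windows), and TGACNNNGC (10.2%) was in no member's window. As the window of Slco1a4 held none, no pattern could be shared by the windows of all 3 genes that rose. Of the 3 windows of Slco2b1, 2 lie inside that gene.

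Over the 6 pools, the genes outside both families whose log2 CPM followed Slco1a1 most closely, among 12957 genes compared, were Selenot (Pearson r = 0.995), Prpf8 (r = 0.993) and Slc35e2 (r = 0.993). Each of these varied far less than Slco1a1, Selenot for example from 95.8 to 122 CPM. Those closest to Slco1a4 were Prkag2 (r = 0.998), Pigx (r = 0.995) and Cdip1 (r = 0.995), and Cdip1 was itself called higher in edgeR (a log2 fold change of 1.12, adjusted p = 0.0383). These values describe 6 points that share libraries and genotype, and they carry no test.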

How the data were processed

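Liver RNA was sequenced in 3 control and 3 *Mttp-IKO* pools. The authors aligned the reads with STAR 2.5.1a to the Ensembl release of the GRCm38 assembly and deposited for each pool the count of uniquely aligned, unambiguous reads per gene from featureCounts 1.4.6-p5, for 41388 genes, without normalization. The authors also deposited CPM (each count scaled to the total of its pool) and RPKM (CPM per kilobase of gene); both follow from the counts, and only counts were tested. The table of all pools holds the same counts with symbols and 276 repeated lines, which were dropped. Whether strand was used is not given in the sources used here.

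Samples were grouped by their titles. The 17287 genes passing edgeR's filterByExpr were scaled by TMM (factors 0.898 to 1.11) and compared with the quasi-likelihood test of edgeR 4.0.16 in R 4.3.3, with p-values adjusted by Benjamini and Hochberg over all of them and a threshold of 0.05. The study's methods name no test for the RNA-Seq, so this test was chosen here. Fold changes are *Mttp-IKO* against control, and confidence intervals are from the fit. Shares were compared by an exact permutation test (scipy 1.17.1). A gene with 0 reads can have a level of up to 3 reads, a limit for counting error alone. Pools of a genotype all differed beyond sampling noise. Scripts were tested on simulated counts.

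The members and all lists were chosen with earlier results of these data known. One gene of the Slc22 family is not reported here and enters no list or share. Genes named are the members and, of each list, the up to 4 with the largest change among those past the threshold; for Slco1a1 and Slco1a4 the 3 genes with the highest correlation of log2 CPM (genes of mean log2 CPM of at least 1, outside both families); others were named with their values known, and cell type markers are given as counts. Alternatives were other scalings, DESeq2 1.42.0, limma-voom (limma 3.58.1), other filters, robust dispersion, only protein-coding genes, a replicate block, removal of the trend with gene length, and leaving out each pool. Coding sequences were taken from GENCODE M21 and aligned with Biopython 1.88. Figures were drawn with matplotlib 3.10.9.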

Additional observations from a re-analysis of the deposited data

How the results depend on the processing

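Of the 9 members, 3 passed the threshold with all pools. With single pools left out the number ran from 0 to 3 (higher, 0 to 3; lower, 0 to 1), that over all genes from 0 to 892, and that of the listed genes from 0 to 30 against 19. The lowest count over all genes was without *Mttp-IKO* pool 2, where 3221 genes had an unadjusted p under 0.05. With an adjusted p under 0.01 in edgeR 0 members passed. The DESeq2 Wald test called 1995 genes in all and 36 of the listed genes, and limma-voom called 428 genes, against 694 with edgeR. Each member had 74 or more reads in every pool. The log2 fold change of Slco1b2 (-0.011) changed sign with DESeq2's size factors (0.0035), the DESeq2 Wald test (0.0035), limma-voom (0.0079), protein-coding genes only (0.0060) and the replicate block (0.0075), and ran from -0.25 to 0.21 with single pools left out. That of Slc22a5 (-0.0092) changed sign with DESeq2's size factors (0.0080), the DESeq2 Wald test (0.0087), protein-coding genes only (0.011) and the gene length trend removed (0.054), and ran from -0.85 to 0.31 without single pools. The ranges without single pools were -0.97 to 1.72 for Slco1a1, -0.12 to 0.76 for Slc22a30 and -1.67 to 3.19 percentage points for the share of Slco1a1 in the summed Slco RPKM. Liver Mttp (-0.056) was at 0.0049 with limma-voom, 0.0067 with the replicate block and -0.34 to 0.10 without single pools. Total counts alone moved the median of all genes to -0.17, and the same 3 members passed. The cause of these changes was not tested.

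Whether the pool numbers pair the samples is not settled by these values. The correlations of same-numbered pools' deviations from their group means were 0.194, 0.169 and -0.0039 for pools 1, 2 and 3. Those of differently numbered pools ran from -0.204 to 0.0209. Pools 1 and 2 thus correlated best with their own number, and pool 3 did not. A fit with the replicate block called 592 genes, 3 of them members.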
